A study of Mus musculus with 19 samples.

Results

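The skeletal myosin heavy chain genes examined here were *Myh1*, *Myh2*, *Myh3*, *Myh4*, *Myh7* and *Myh8*. They were picked by name as the rows whose Ensembl identifiers map to these symbols, and all 6 were found among the 46078 genes measured in 19 RNA-seq libraries of female mouse mammary tissue. MGWT are mammary glands of age-matched Wild Type mice (n = 3), and MGN (n = 4) and MGNP (n = 4) are glands without malignant lesions taken from tumor-bearing mice, and TN (n = 4) and TNP (n = 4) are tumors. All mice of the MGN, MGNP, TN and TNP groups carried MMTV-neu, in which the MMTV promoter drives the neu oncogene in mammary epithelium. MGNP and TNP mice were MMTV-neu;p53wm-R172H/+;Fsp-Cre, where Fsp-Cre turns on the mutant p53 allele in fibroblasts. TN mice and the mouse of MGN replicate 1 were MMTV-neu;Fsp-Cre, and those of MGN replicates 2 to 4 were MMTV-neu;p53wm-R172H/+ without Cre. The colony had a mixed FVB, C57 and BALB/c background, ages are not given in the labels, and TNP replicates 1 and 2 share a number in their library names. The study calls its samples biological replicates, and whether those 2 tumors came from 1 animal is not stated.

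Myosin heavy chain is the motor protein of the thick filament, and a muscle fiber is typed by the heavy chain it holds. In the adult mouse *Myh4* encodes the chain of fast glycolytic IIB fibers, *Myh1* that of fast IIX fibers, *Myh2* that of fast oxidative IIA fibers, and *Myh7* that of slow type I fibers, which heart ventricle also uses. *Myh3* and *Myh8* encode the embryonic and perinatal chains, which are made in developing and regenerating muscle. The inguinal and thoracic mammary fat pads lie beside skin and body wall muscle, and the gland itself is made of epithelium, myoepithelium, fat and stroma.

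Libraries held 54677315 to 62645459 reads on genes in MGWT and 20899152 to 27262440 in the other groups. Values are DESeq2-normalized counts as deposited. In each library they are whole multiples of what 1 read is worth, which gave the number of reads. The 6 genes took 129 to 238 reads in MGWT, 138 to 7503 in MGN, 4781 to 928679 in MGNP, 123 to 11621 in TN and 52 to 2224 in TNP, so that MGNP replicates 1, 2 and 4 stand far apart from all other libraries. In these 3 glands the 6 genes made up 0.732%, 3.87% and 2.04% of all reads, against 0.0223% in MGNP replicate 3. Tissue markers also differed between the glands, although all were labelled mammary gland. The 6 white adipocyte markers (*Adipoq*, *Lep*, *Retn*, *Cfd*, *Plin1*, *Fabp4*) summed to 1163 to 1550 normalized counts in MGWT, 241300 to 329800 in MGN and 114700 to 310300 in MGNP, and all 6 were higher in MGN and in MGNP than in MGWT (limma, Benjamini-Hochberg adjusted p under 0.05 and at least 2-fold). Most of the MGWT sum was *Fabp4*, a fatty acid carrier that other cells also use, with 1047 to 1429 normalized counts, whereas *Adipoq*, an adipocyte hormone, had 1.71, 23.4 and 9.82. The part of tissue composition in the comparisons with MGWT was not tested.

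Of the 6 genes, 5 stand in a row on the plus strand of chromosome 11 (GRCm38, GENCODE vM21), in the order *Myh3* (ENSMUSG00000020908, chr11:67078300-67102291), *Myh2* (ENSMUSG00000033196, chr11:67171027-67197517), *Myh1* (ENSMUSG00000056328, chr11:67200052-67224575), *Myh4* (ENSMUSG00000057003, chr11:67238029-67260446) and *Myh8* (ENSMUSG00000055775, chr11:67277124-67308634). *Myh7* (ENSMUSG00000053093, chr14:54970684-54994626) lies on the minus strand of chromosome 14. The genes are close paralogs, and how reads matching several of them were counted is not given in the sources used here, so small counts of a paralog beside a very abundant one are uncertain. The antisense gene *Myhas* overlaps *Myh1* and had at most 164 reads in a library, *9430073C21Rik* overlaps *Myh2* with at most 42, and *Mhrt* overlaps *Myh7* with at most 9. These maxima fell in MGNP replicate 2 for the first and second and in MGNP replicate 4 for *Mhrt*, and a strand setting is not given. Reads of the sense and antisense genes cannot be told apart.

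Because *Myh4*, *Myh1* and *Myh2* carry most skeletal myosin reads in most libraries and rise and fall together, the stretches just upstream of their starts are shown beside that of *Myh7* (RefSeq, GRCm38.p6, 5′ to 3′ on the strand of the gene). Capitals mark runs of at least 8 bases that the 300-base windows of all 3 fast genes share. The windows run from 250 bases before to 50 after the RefSeq start and are cut here before the first annotated start, which leaves the shared run TATAAAAG outside the stretches of *Myh1* and *Myh2*. RefSeq and GENCODE place that start 217 bases apart for *Myh4* and 50 apart for *Myh1*.
Myh4 (chr11:67237562-67237811, plus strand): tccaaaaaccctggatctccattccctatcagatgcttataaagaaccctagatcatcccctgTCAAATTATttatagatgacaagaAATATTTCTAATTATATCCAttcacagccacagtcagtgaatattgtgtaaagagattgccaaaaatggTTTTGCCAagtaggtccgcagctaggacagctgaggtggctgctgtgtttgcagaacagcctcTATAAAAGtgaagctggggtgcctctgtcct
Myh1 (chr11:67199852-67200051, plus strand): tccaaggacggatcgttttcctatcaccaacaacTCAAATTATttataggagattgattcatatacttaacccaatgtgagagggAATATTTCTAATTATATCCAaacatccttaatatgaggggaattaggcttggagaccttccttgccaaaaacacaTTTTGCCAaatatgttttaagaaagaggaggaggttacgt
Myh2 (chr11:67170777-67171026, plus strand): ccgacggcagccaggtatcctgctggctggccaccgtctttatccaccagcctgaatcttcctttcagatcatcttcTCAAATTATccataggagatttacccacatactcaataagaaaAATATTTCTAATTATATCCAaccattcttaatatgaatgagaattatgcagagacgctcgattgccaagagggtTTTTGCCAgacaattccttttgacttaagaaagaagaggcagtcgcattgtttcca
Myh7 (chr14:54994627-54994876, minus strand): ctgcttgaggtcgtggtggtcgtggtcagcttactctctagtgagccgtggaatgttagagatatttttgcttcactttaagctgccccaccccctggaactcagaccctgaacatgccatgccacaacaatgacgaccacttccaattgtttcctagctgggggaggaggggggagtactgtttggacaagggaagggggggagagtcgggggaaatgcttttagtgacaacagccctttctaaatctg

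Searched on both strands, the 20-base run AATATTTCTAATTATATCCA was held by 3 of the 32851 promoter windows in RefSeq (0.00913%), those of *Myh4*, *Myh1* and *Myh2*. Its inner 14 bases TTCTAATTATATCC were also in the window of *Myh8*, which made 4 windows (0.0122%). The shorter runs TCAAATTAT and TTTTGCCA were in 0.18% and 1.09% of all windows, and TCAAATTAT was again in that of *Myh8*. TATAAAAG, in 1.7% of windows, was in those of *Myh4*, *Myh1*, *Myh2* and *Myh3*. It contains TATAAA, which 13.6% of windows held, among them that of *Myh8*. The *Myh7* window held none of these runs. The E-box CANNTG, the letters that myogenic factors bind, was found 3 times in the *Myh4* window, 2 times each in those of *Myh7* and *Myh8*, 1 time in that of *Myh3* and in neither the *Myh1* nor the *Myh2* window, while 72.3% of all windows held at least 1. The runs were picked after the sequences had been seen, and a match is only a description of the letters.

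*Myh4*, the IIB gene, had the highest values. Its normalized counts were 2.13, 3.91 and 7.75 in MGWT, 5192, 4679, 3747 and 69.0 in MGN replicates 1 to 4, and 136500, 1033000, 4721 and 465000 in MGNP replicates 1 to 4. The tumors had 512.4, 80.1, 7402 and 80.5 in TN and 16.8, 469.7, 1805 and 1845 in TNP. Every gland of tumor-bearing mice thus lay above every MGWT gland. MGNP replicate 3 fell inside the range of MGN, and the other 3 MGNP glands lay above all MGN glands and all tumors. In such bulk samples fewer muscle cells and less RNA per cell cannot be told apart.

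*Myh1*, the IIX gene, was likewise highest in MGNP replicates 1, 2 and 4. It had 37.1, 22.9 and 24.8 normalized counts in MGWT, 978.2, 3026, 323.1 and 18.5 in MGN, and 23300, 206600, 294.6 and 170700 in MGNP. In tumors it had 756.7, 29.5, 2558 and 23.3 in TN and 4.49, 148.8, 475.4 and 736.6 in TNP. MGN replicate 4 lay below all 3 MGWT glands for this gene, although its *Myh4* value lay above them.

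*Myh2* was the lowest of the fast adult genes per kb of exon in every library except the MGWT glands and TNP replicate 1. It had 28.6, 10.7 and 20.7 normalized counts in MGWT, 236.9, 858.5, 103.3 and 4.12 in MGN, and 9997, 82440, 121.3 and 52330 in MGNP. TN tumors had 228.4, 0, 1491 and 9.34, and TNP tumors had 10.1, 79.3, 144.2 and 173.5. The 0 in TN replicate 2 is a count of no reads, and 3 reads of its 131 reads on the 6 genes, or 2.29%, is the share that it still allows. Intervals and such limits cover counting error only.

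*Myh7*, the slow gene, was highest in MGNP replicates 1, 2 and 4, followed by TN replicates 3 and 1. It had 9.81, 4.39 and 6.72 normalized counts in MGWT, 28.0, 5.75, 1.88 and 5.15 in MGN, 171.6, 1.05, 239.3 and 2.33 in TN and 0, 11.0, 2.60 and 6.24 in TNP. In MGNP it had 793.5, 3566, 7.58 and 21270. Replicate 4 was the highest here although replicate 2 was the highest for *Myh4*, *Myh1* and *Myh2*, and replicate 3 lay inside the range of MGWT.

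The developmental genes had low values next to the adult genes of the muscle-rich MGNP glands. *Myh3*, the embryonic gene, had 0.488 to 1.71 normalized counts in MGWT, 0 to 3.45 in MGN and 0 to 5.20 in TNP, and in TN it had 16.2 in replicate 3 and no reads in the other three. In MGNP it had 10.49, 58.5, 3.25 and 95.6, which is 11, 41, 3 and 74 reads. *Myh8*, the perinatal gene, had 16 to 22.2 normalized counts in MGWT, 36.9 to 50.6 in MGN, 27.4 to 31.8 in TN and 9.76 to 48.1 in TNP, and 85.8, 181.3, 30.3 and 237.6 in MGNP. *Myh8* varied least of the members with more than 3 reads in every library of a group. Its highest value was 1.38 times its lowest in MGWT, 1.37 times in MGN, 1.16 times in TN and 7.83 times in MGNP, where for *Myh4* the same ratios were 3.64, 75.2, 92.4 and 219.

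**Figure D1:**
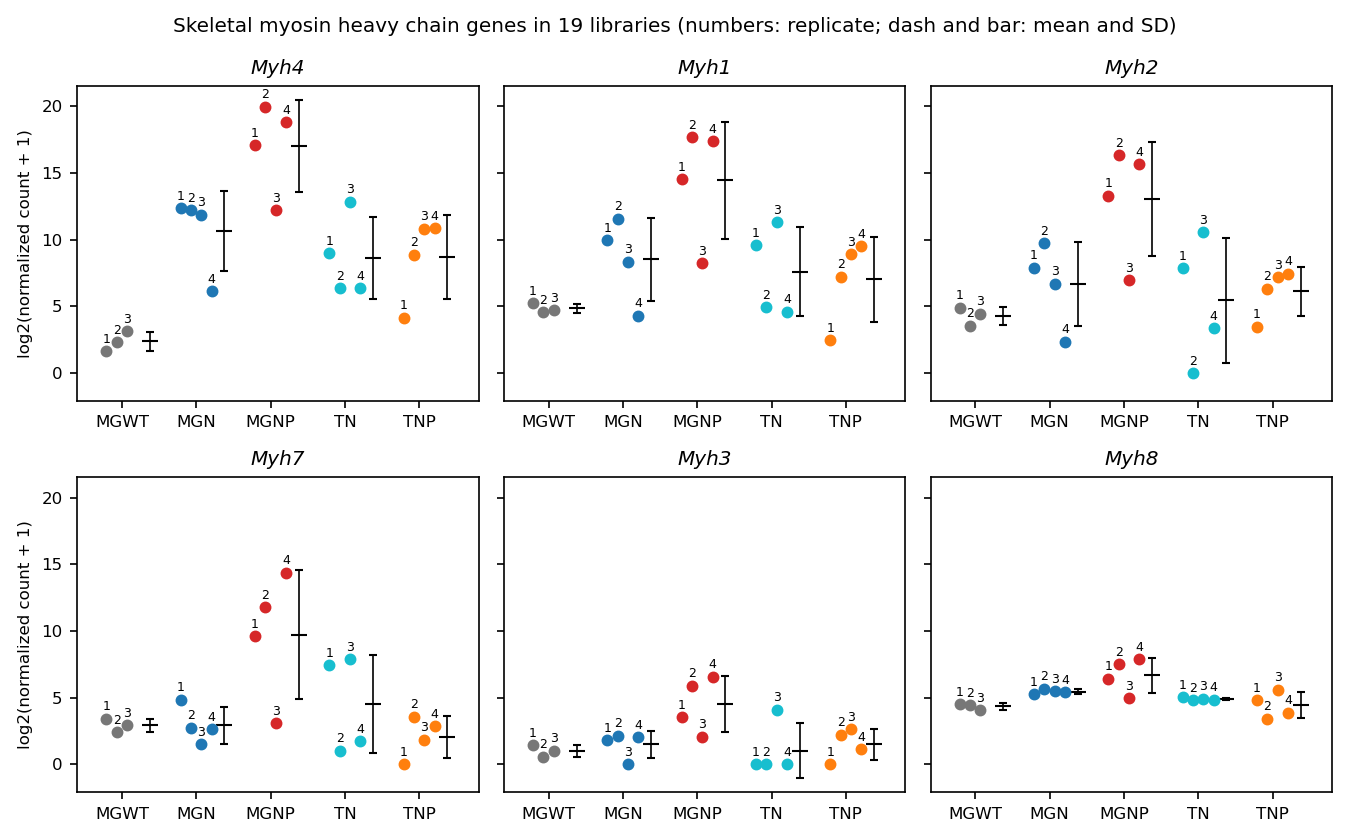
Normalized counts of the 6 genes as log2(normalized count + 1) in each of the 19 libraries, by group, with the replicate number at each point and a dash and bar for the mean and SD of the group. MGNP replicates 1, 2 and 4 lie far above the other libraries for *Myh4*, *Myh1*, *Myh2* and *Myh7*, whereas *Myh8* stays between 9.76 and 237.6 normalized counts throughout.

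To compare the genes with each other, reads were divided by the length of each gene's exons and expressed as a share of the 6 genes. Exon lengths were 6.02 kb for *Myh4*, 6.35 kb for *Myh1*, 7.14 kb for *Myh2*, 8.62 kb for *Myh7*, 6.06 kb for *Myh3* and 11.77 kb for *Myh8*, whose longest transcript has only 6149 bases. In MGNP the share of *Myh4* was 81.4%, 79.4%, 92.1% and 67.8%, that of *Myh1* 13.2%, 15.0%, 5.44% and 23.6%, and that of *Myh2* 5.03%, 5.34%, 1.99% and 6.43%. All 4 MGNP glands thus had the same order of IIB over IIX over IIA transcripts, and although the range of *Myh1* over the glands overlapped that of *Myh2*, *Myh1* was the higher within each. *Myh7* made up 0.331%, 0.191% and 0.103% in replicates 1 to 3 and 2.17% in replicate 4 (95% Wilson interval 2.13 to 2.20%), so that replicate 4 held the most slow and the least IIB transcript of its group. *Myh3* and *Myh8* together made up 0.0116% to 0.365%.

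MGN had nearly the same order. The share of *Myh4* was 81.6%, 56.4%, 90.0% and 58.3%, that of *Myh1* 14.6%, 34.5%, 7.35% and 14.8%, and that of *Myh2* 3.14%, 8.72%, 2.09% and 2.94%. In replicate 4, with 138 reads on the 6 genes, *Myh8* made up 18.2% (13.4 to 24.3%) and ranked second, while in replicates 1 to 3 it made up 0.297% to 0.542%. The *Myh7* share was 0.308%, 0.0483%, 0.0315% and 3.04%, the last resting on 5 reads.

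No difference in shares between MGNP and MGN exceeded the spread between glands. Mean shares of *Myh4* were 80.2% ± 9.96 (SD, n = 4) in MGNP and 71.6% ± 16.8 (SD, n = 4) in MGN (exact two-sided permutation p = 0.4). For *Myh1* the means were 14.3% ± 7.44 and 17.8% ± 11.7 (exact permutation p = 0.6), for *Myh2* 4.7% ± 1.9 and 4.22% ± 3.03 (exact permutation p = 0.886), and for *Myh7* 0.698% ± 0.983 and 0.857% ± 1.46 (exact permutation p = 0.886). The summed share of *Myh3* and *Myh8* was 0.11% ± 0.17 and 5.52% ± 10.2 (exact permutation p = 0.0857). This MGN mean rested on replicate 4, at 20.8% on 138 reads, while the median of MGN was 0.447%. With 1 gland left out in turn, the difference in the summed share ran from -7.13 to -0.3 percentage points. The smallest p that 4 against 4 glands can give is 0.0286. Leaving out 1 gland turned the sign of the small *Myh1*, *Myh2* and *Myh7* differences: the *Myh1* difference in percentage points became 2.05 without MGN replicate 2, that of *Myh2* -0.232 without MGN replicate 3 and -0.0994 without MGNP replicate 4, and that of *Myh7* 0.568 without MGN replicate 4, 0.00949 without MGNP replicate 2 and 0.0389 without MGNP replicate 3.

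MGWT had a different make-up on very few reads. *Myh1* led in all 3 glands with 43.3%, 44.6% and 37.5%, and *Myh2* made up 29.7%, 18.6% and 27.8%. *Myh8* made up 14%, 21.5% and 13.1%, *Myh7* 8.43%, 6.30% and 7.50%, and *Myh4* only 2.63%, 8.02% and 12.4%. The *Myh4* share in every MGN and MGNP gland lay above this range, and that of *Myh2* and *Myh7* lay below it in every such gland. In the exact two-sided permutation tests of MGNP and of MGN against MGWT, *Myh4*, *Myh2* and *Myh7* all gave p = 0.0286, the smallest that 3 against 4 glands allow. *Myh1* gave an exact permutation p of 0.0286 in MGNP and 0.0571 in MGN. Both comparisons share the MGWT glands, and of the 30 share tests run in all none passed after adjustment (lowest Benjamini-Hochberg adjusted p = 0.107, exact permutation tests).

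Tumors had the fast order of the glands in most libraries. The *Myh4* share was 32.9%, 65.2%, 65.6% and 63.7% in TN and 38.8%, 67.7%, 75% and 68.3% in TNP. TN replicate 1, with 1497 reads on the 6 genes, was led by *Myh1* at 46.0% (43.5 to 48.5%) and held 7.69% of *Myh7* (6.58 to 8.97%). TNP replicate 1 had 52 reads on the 6 genes in all, 24 of them on *Myh8*, so its shares are the least certain of the series. Mean shares of *Myh4* were 56.9% ± 16 (SD, n = 4) in TN and 62.4% ± 16.1 (SD, n = 4) in TNP (exact permutation p = 0.457), and no share in TN against MGN or TNP against MGNP passed the test (lowest exact permutation p = 0.0571, for *Myh3* and *Myh8* summed in TNP against MGNP).

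**Figure D2:**
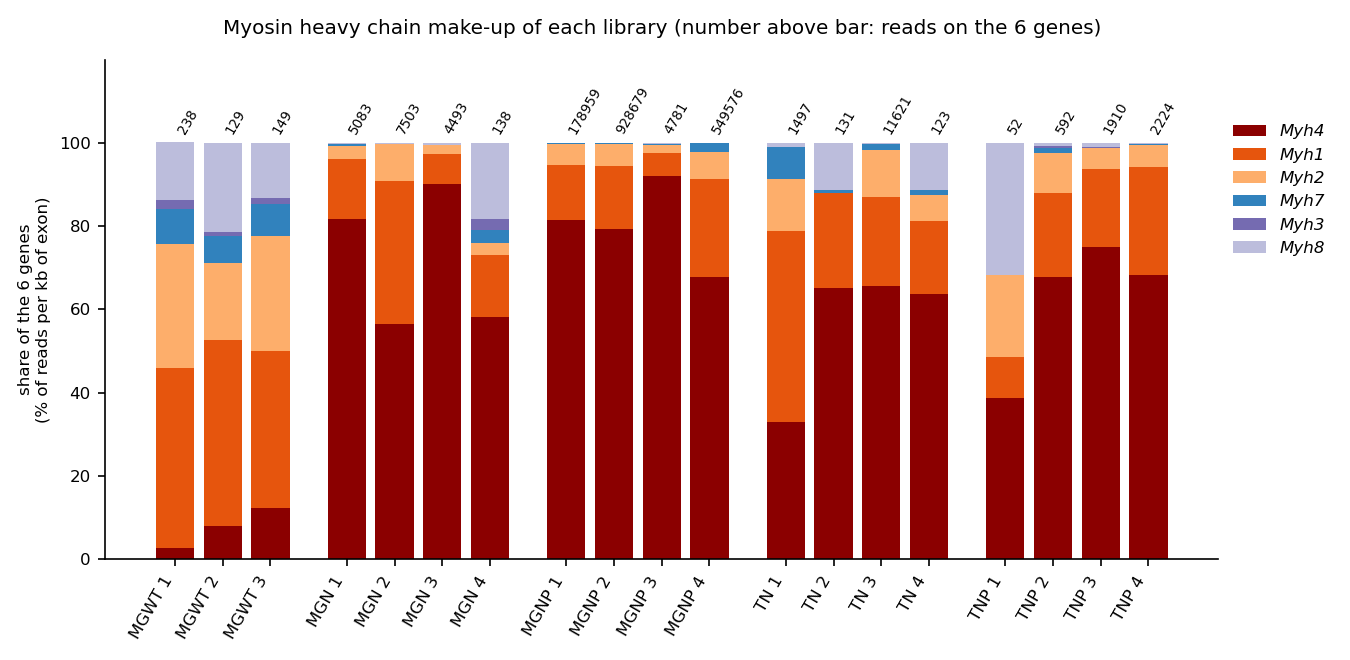
Stacked bars give each gene's share of the 6 genes in each library, as the percentage of reads per kb of exon, and the number above a bar is the reads on the 6 genes. *Myh4* takes 67.8% to 92.1% of every MGNP bar, *Myh1* leads the MGWT bars and TN replicate 1, and *Myh8* is wide only in bars with few reads.

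Glands of tumor-bearing mice were next compared with MGWT by limma on log2(normalized count + 1), a scale that understates changes of low genes. A gene was called at a Benjamini-Hochberg adjusted p under 0.05 over all genes and at least a 2-fold change. In MGN, 4 of the 6 genes passed the filter on low values, *Myh4* only through MGN, and 2 were called, both higher, where 19.1% of the 19017 genes tested were higher, 17.9% lower and 37% called in either direction. *Myh4* rose by 8.28 (SE 1.43, adjusted p = 0.00146) and *Myh8* by 1.12 (SE 0.25, adjusted p = 0.00566). *Myh1* had a log2 fold change of 3.69 (SE 1.46, adjusted p = 0.0573) and *Myh2* one of 2.38 (SE 1.49, adjusted p = 0.2), with ranges that overlapped those of MGWT through MGN replicate 4. Without that gland 4 genes were called, with *Myh1* at 5.11 and *Myh2* at 3.82, and without MGWT replicate 3 only *Myh4* was called, *Myh8* then being at 0.99. edgeR and DESeq2 on the recovered reads each called 4 of the 6 genes, where over all genes edgeR called 3728 higher and 3409 lower of 19017 and DESeq2 4477 higher and 3895 lower.

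In MGNP all 6 genes passed the filter and were called higher than in MGWT, where 16.4% of the 19065 genes tested were higher, 16.2% lower and 32.6% called in either direction. The log2 fold change was 14.66 for *Myh4* (SE 1.69, adjusted p = 0.000725), 9.60 for *Myh1* (SE 2.13, adjusted p = 0.00931), 8.76 for *Myh2* (SE 2.1, adjusted p = 0.0123) and 6.79 for *Myh7* (SE 2.35, adjusted p = 0.0477). *Myh7* was called although MGNP replicate 3 overlapped MGWT. The developmental genes rose least, by 3.51 for *Myh3* (SE 1.06, adjusted p = 0.0299) and 2.35 for *Myh8* (SE 0.68, adjusted p = 0.0247). *Myh3*, *Myh4* and *Myh7* were under 10 normalized counts in every MGWT gland and passed the filter only through MGNP, which favors calls in this direction, so the count of 6 is no support beyond the values of *Myh1*, *Myh2* and *Myh8*. *Myh3* had 1 to 4 reads in the MGWT glands. With a pseudocount of 5 its log2 fold change was 2.31, and neither it nor *Myh7* was called (adjusted p = 0.0559 and 0.0504). The calls of *Myh3*, *Myh7* and *Myh8* were lost, leaving 3 genes, without MGWT replicate 1, 2 or 3 (adjusted p = 0.0656 to 0.126). Without MGNP replicate 2 the count was also 3, and without MGNP replicate 1 or 4 it was 4, as *Myh3* and *Myh7* no longer passed the filter. White adipocyte markers moved with both comparisons, as given above. All 5 luminal markers (*Krt8*, *Krt18*, *Krt19*, *Epcam*, *Elf5*) and all 5 myoepithelial and smooth muscle markers (*Acta2*, *Krt5*, *Krt14*, *Cnn1*, *Tagln*) were lower in MGN and in MGNP than in MGWT. Luminal markers summed to 59360 to 70590 normalized counts in MGWT, 11300 to 22240 in MGN and 7655 to 22800 in MGNP, and myoepithelial markers to 37360 to 46910, 5292 to 15720 and 5440 to 13730. MGWT libraries were also more deeply sequenced, and the part of any of these in the myosin differences was not tested.

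Between MGNP and MGN no gene was called, and 0% of the 18563 tested were called in all (limma, Benjamini-Hochberg, 1950 genes at an unadjusted p under 0.05). The log2 fold changes of the 5 members tested were nonetheless large, at 6.79 for *Myh7* (SE 2.13, adjusted p = 0.341), 6.38 for *Myh4* (SE 1.93, adjusted p = 0.339), 6.38 for *Myh2* (SE 2.25, adjusted p = 0.376), 5.91 for *Myh1* (SE 2.28, adjusted p = 0.409) and 1.24 for *Myh8* (SE 0.59, adjusted p = 0.514). The first 4 had an unadjusted p under 0.05. All 5 had overlapping groups, since MGNP replicate 3 lay within or below the range of MGN. Without that gland *Myh7* was called, at 9 (adjusted p = 0.0146), and the other members were not. The remaining MGNP glands alone were then enough for *Myh7* to pass the filter, which favors calls in this direction. Its MGN values were 1.88 to 28.0 normalized counts. edgeR also called no member, and no gene at all, whereas DESeq2 called 5 members, *Myh3* in place of *Myh8*, with 533 genes higher and 118 lower in all. The difference thus rested on 3 of 4 MGNP glands, and its call depended on the test.

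Tumors were compared with glands, TN with MGN and TNP with MGNP. All TN mice carried Fsp-Cre without the p53 allele while 3 of the 4 MGN mice carried the p53 allele without Cre, so tissue and genotype cannot be told apart in TN against MGN beyond MGN replicate 1. In TN against MGN none of the 4 members tested was called, where 22.3% of the 17950 genes tested were lower, 12.8% higher and 35.1% called in either direction. *Myh4* had a log2 fold change of -2 (SE 1.78, adjusted p = 0.373), *Myh1* one of -0.93 (SE 1.90, adjusted p = 0.704) and *Myh2* one of -1.24 (SE 2.34, adjusted p = 0.679). *Myh8* had -0.56 (SE 0.25, adjusted p = 0.0928), and its groups did not overlap. DESeq2 called 1 member, *Myh7*, higher in TN, where over all genes it called 2833 higher and 5091 lower. The white adipocyte markers summed to 258.1 to 5696 normalized counts in TN against 241300 to 329800 in MGN, the luminal markers to 80770 to 160100 against 11300 to 22240, and the myoepithelial markers to 1397 to 4914 against 5292 to 15720. Among the luminal markers *Krt19* went the other way, with 33.7 to 215.1 in TN against 2833 to 3515 in MGN. The part of these cell types was not tested.

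In TNP against MGNP all 5 members tested were lower, where 24% of the 17880 genes tested were lower, 14.7% higher and 38.7% called in either direction. *Myh4* fell by 8.34 (SE 1.93, adjusted p = 0.0063), *Myh7* by 7.66 (SE 2.11, adjusted p = 0.0138), *Myh1* by 7.41 (SE 2.25, adjusted p = 0.0211), *Myh2* by 6.95 (SE 1.93, adjusted p = 0.0144) and *Myh8* by 2.27 (SE 0.71, adjusted p = 0.0239). *Myh7* passed the filter through MGNP replicates 1, 2 and 4 and TNP replicate 2, which had 11.0 normalized counts. The other TNP tumors had 0 to 6.24, so its call of lower values was favored by the filter. Only for *Myh4* did the groups not overlap. The count was 3 without MGNP replicate 2 or 4, which cost *Myh1* (adjusted p = 0.054 and 0.0523) and *Myh8* (adjusted p = 0.0615 and 0.0589). Leaving out TNP replicate 1 cost *Myh1* alone (adjusted p = 0.0521), and leaving out TNP replicate 2 or 4 cost *Myh8* alone (adjusted p = 0.0667 and 0.0622). With TNP replicates 1 and 2 averaged as 1 sample, *Myh8* was at -2.11 (adjusted p = 0.0502). Other tissue markers moved too: the white adipocyte markers summed to 585.6 to 1804 normalized counts in TNP against 114700 to 310300 in MGNP, the luminal markers to 85320 to 120500 against 7655 to 22800, and the myoepithelial markers to 1677 to 2834 against 5440 to 13730. Among the luminal markers *Krt19* went the other way, with 72.4 to 1512 in TNP against 1528 to 5624 in MGNP. The part of these tissues in the fall of the myosins was not tested. These values share the MGNP glands with the comparisons above.

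Between TNP and TN none of the 4 members tested was called, where 7 of 16638 genes (0.0421%) were called, 0.0361% higher and 0.00601% lower. The log2 fold changes were 0.04 for *Myh4* (SE 1.81), -0.58 for *Myh1* (SE 1.91), 0.67 for *Myh2* (SE 2.07) and -0.48 for *Myh8* (SE 0.48), with adjusted p-values of 0.998, 0.956 and 0.953 for the first 3 (limma, Benjamini-Hochberg). The test of whether the tumor-to-gland change differed between the genotypes called 0% of 19367 genes and no member (limma, Benjamini-Hochberg, 1536 genes at an unadjusted p under 0.05). In it *Myh7* had a difference of -9.25 (SE 2.87, adjusted p = 0.486) and *Myh4* one of -6.34 (SE 2.84, adjusted p = 0.605). DESeq2 called 4 members lower here, with 56 genes higher and 284 lower in all, edgeR called no gene, and limma without MGNP replicate 3 called *Myh7* (-11.45, adjusted p = 0.0248). The fall called in TNP and not in TN is therefore not shown to differ between the genotypes by the main test.

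**Figure D3:**
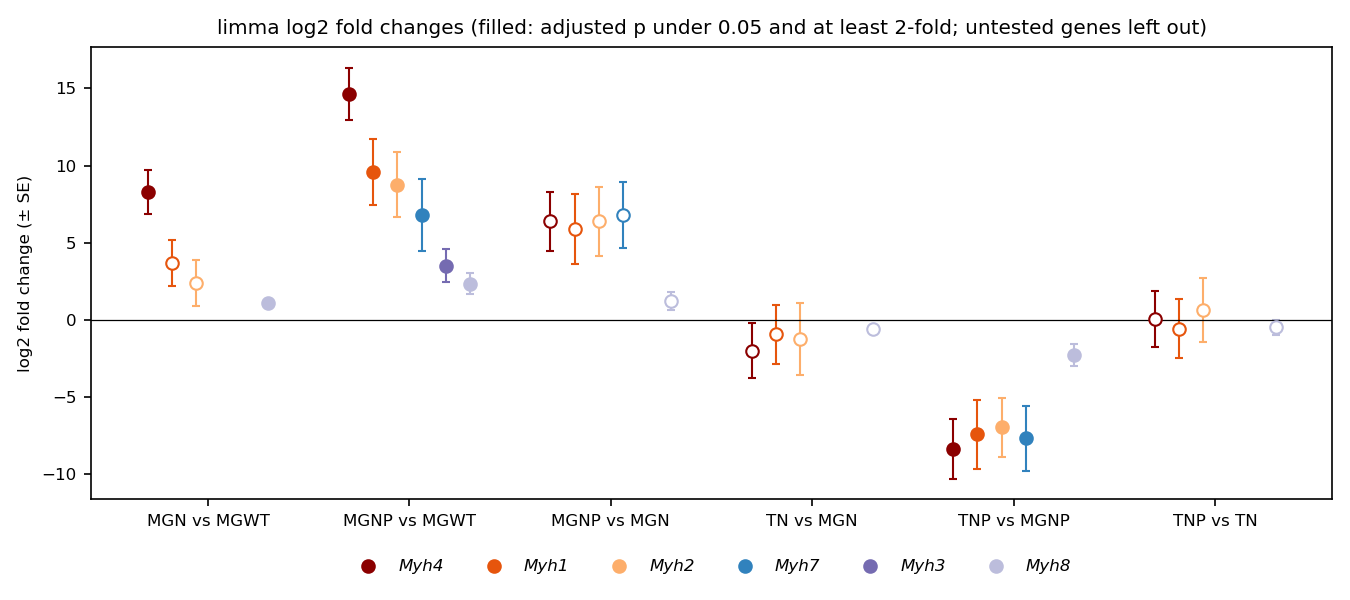
limma log2 fold changes with their SE for the members tested in each of 6 comparisons, filled where the gene was called. All points of MGNP against MGWT and of TNP against MGNP are filled, and no point of MGNP against MGN, TN against MGN or TNP against TN is.

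The other genes of muscle fibers moved in the same comparisons. Of 10 pan-fiber genes, which all skeletal fibers use, 9 were higher in MGN than in MGWT (median log2 fold change 3.85, against 0.02 over all genes tested) and 10 of 10 in MGNP (median 9.41). *Acta1*, skeletal actin, rose by 6.02 in MGN (SE 0.93, adjusted p = 0.000809) and 11.95 in MGNP (SE 1.69, adjusted p = 0.00159). *Ckm*, muscle creatine kinase, rose by 6.40 (SE 1.80, adjusted p = 0.0153) and 13.41 (SE 1.70, adjusted p = 0.00103). The gene not called in MGN was *Mb*, myoglobin, the oxygen store of oxidative fibers, at 0.32 (SE 0.56, adjusted p = 0.65). *Ckm*, *Tcap* and *Trdn* were under 10 normalized counts in every MGWT gland, so they passed the filter only through the tumor-bearing mice, as *Tnni2*, *Tnnc2*, *Mylpf*, *Pvalb* and *Casq1* did among the fast partners and *Tnnt1*, *Myl2*, *Myl3* and *Ankrd2* among the slow ones described next. In TNP against MGNP 9 of the 10 were lower (median -7.71), where 24% of all genes tested were lower. In MGNP against MGN none was called, yet all 10 had a positive fold change (median 5.36, against -0.02 over all genes). An unadjusted limma p under 0.05 was found for 10 of 10, and for 1950 of the 18563 genes tested. The 10 genes were highest in the same MGNP glands, so they do not count as separate evidence.

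Most partners of the fast fibers were called in the comparisons where *Myh4* was. In TN against MGN, where *Myh4* was not called, 1 of the 10 was called lower. Of 10 fast partners, 9 were higher in MGN than in MGWT (median 4.67) and 10 in MGNP (median 10.54), and 10 of 10 were lower in TNP than in MGNP (median -7.69). The shares over all genes tested were 19.1%, 16.4% and 24%. *Pvalb*, parvalbumin, the calcium buffer of IIB fibers, had 0.517 to 2.44 normalized counts in MGWT and 2.06 to 291.7 in MGN, and in MGNP it had 7694, 57430, 255.6 and 35390. *Atp2a1*, the fast calcium pump SERCA1, had 12.9 to 18.1 in MGWT, 25.8 to 1984 in MGN and 59490, 371700, 1706 and 226700 in MGNP. *Myl1*, a fast light chain, was high in all 4 MGN glands, with 1132, 1329, 1048 and 674.6, so that MGN replicate 4 was not as far from its group for *Myl1* as for *Myh4*. In MGNP against MGN no fast partner was called, and all 10 had a positive fold change (median 6.08).

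Partners of the slow fibers were mostly not called in MGN. Of 8 slow partners, 5 were tested there, and none was higher and 1 lower, namely *Tnni1*, slow troponin I (-3.51, SE 0.52, adjusted p = 0.000686). In MGNP all 8 were tested and 5 were higher than in MGWT (median 5). Of the 5 tested in TNP against MGNP, all 5 were lower (median -4.61), where 24% of all genes tested were lower. *Tnnt1* passed that filter only through MGNP, with 11.9 to 4777 normalized counts against at most 9.09 in TNP. This favors a call of lower values in TNP. MGNP replicate 4 was the highest library for 6 of the 8. *Myl2*, the slow light chain that heart ventricle also uses, had 163.1, 1019, 7.58 and 5050 normalized counts in MGNP and at most 67.7 in any other library, and *Tnnt1*, slow troponin T, had 194.6, 830.7, 11.9 and 4777. *Mybpc1*, a slow myosin-binding protein, was instead highest in replicate 2 of MGNP, with 5904, 52590, 115.9 and 38600.

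**Figure D4:**
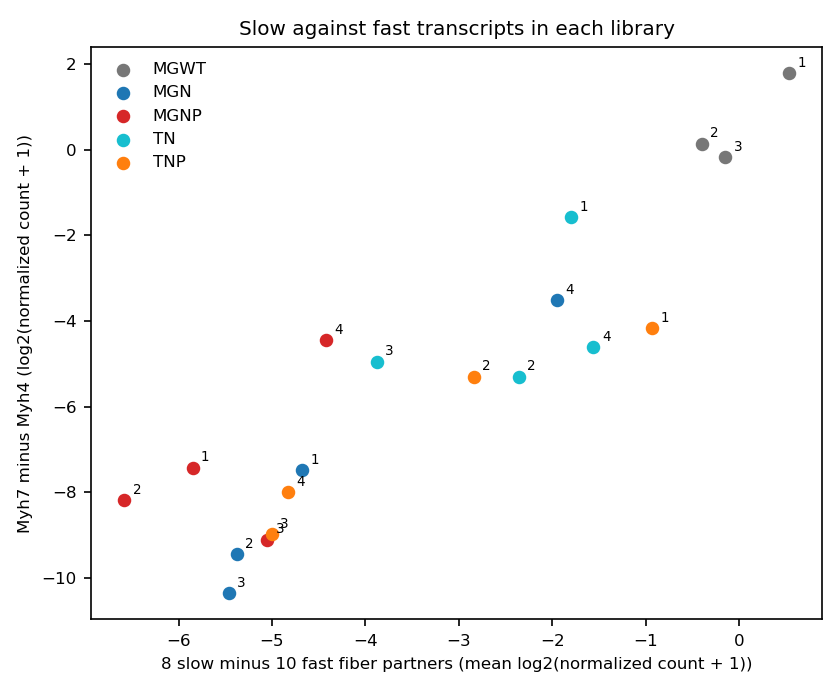
Each point is a library, numbered by replicate, with the mean log2(normalized count + 1) of 8 slow partners minus that of 10 fast partners on the x axis and *Myh7* minus *Myh4* on the same scale on the y axis. MGWT lies near 0 on both axes (-0.40 to 0.53 and -0.18 to 1.79), MGNP lies at -6.58 to -4.42 and -9.10 to -4.45, and MGNP replicate 4 is the highest of its group on both.

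Slow transcripts were also set against fast ones in each library, once for the myosins and once for their partners. The difference *Myh7* minus *Myh4* in log2(normalized count + 1) ran from -10.35 to -3.51 in MGN, -9.10 to -4.45 in MGNP, -5.30 to -1.57 in TN and -8.97 to -4.16 in TNP. The mean difference between slow and fast partners ran from -5.46 to -1.95 in MGN, -6.58 to -4.42 in MGNP, -3.88 to -1.56 in TN and -5.00 to -0.93 in TNP. The values nearest 0 within MGN and TNP belonged to the libraries with the fewest myosin reads, MGN replicate 4 and TNP replicate 1. TN replicate 1, which led its group for *Myh7* minus *Myh4*, had 1497 such reads, and TN replicate 4 led it for the partners. In MGNP replicate 3 was the lowest for the myosins and replicate 2 for the partners.

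Markers of heart muscle, which shares *Myh7*, were looked at in the same libraries. *Nppa* and *Nppb*, the atrial and brain natriuretic peptides, and *Myl7*, the atrial light chain, had at most 1.22, 2.33 and 6.90 normalized counts in any library. *Tnni3*, cardiac troponin I, had 15.5 to 52.0 in MGNP against 80.6 to 115.1 in MGWT, and was lowest in MGNP replicate 4, where *Myh7* was highest. *Myh6*, the alpha chain of heart and a close paralog that lies beside *Myh7*, was highest in the gland with the most *Myh7*. It had 87.8, 252.6, 44.4 and 1967 in MGNP, at most 1.95 in MGWT and 10.2, 89.7, 10.3 and 0 in MGN. It was called higher in MGNP than in MGWT (adjusted p = 0.00346) and lower in TNP than in MGNP (adjusted p = 0.000505). *Myh13*, the extraocular chain, had 22.8 to 64.2 in MGNP and at most 1.46 in MGWT, and was likewise called higher in MGNP (adjusted p = 0.000407). Both genes passed the filter only through MGNP, which favors calls in this direction. Its MGNP values lay above all 4 MGN glands, which had 0 to 14.1.

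MGNP replicate 4 also stood apart in brown fat transcripts. *Ucp1*, the uncoupling protein of brown fat, had 56930 normalized counts there, 2.86 to 1967 in the other MGNP glands and at most 1139 elsewhere. The 6 brown adipocyte markers summed to 81660 in this gland and to 1723 to 6479 in the others of MGNP, and *Ppargc1a* and *Cox7a1* of that list are also used by oxidative muscle. The part of brown fat in the slow share of this gland was not tested.

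Non-muscle and smooth muscle myosins had small fold changes between MGNP and MGN, where the skeletal genes had large ones. Of *Myh9*, *Myh10*, *Myh11* and *Myh14*, none was called between MGNP and MGN (median log2 fold change 0.04, range -0.23 to 0.66), where the 5 skeletal genes tested had a median of 6.38. Against MGWT, *Myh11*, the smooth muscle chain found in myoepithelium, was lower in MGN (-1.29, SE 0.30, adjusted p = 0.00648) and MGNP (-1.09, SE 0.32, adjusted p = 0.0258), as was *Myh14*, a non-muscle chain, at -2.12 (SE 0.18, adjusted p = 4.18e-05) and -1.46 (SE 0.27, adjusted p = 0.00453). In tumors *Myh11* was lower than in glands, at -4.33 in TN against MGN (SE 0.35, adjusted p = 7.57e-05) and -4.41 in TNP against MGNP (SE 0.34, adjusted p = 2.78e-05). *Myh14* went the other way and was called higher in both, at 1.84 and 1.16.

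Genes of muscle formation and regeneration were followed with a list of 12. *Mymk* and *Mymx*, which fuse myoblasts, had at most 1.55 and 1.43 normalized counts in any library, and *Chrng*, the fetal acetylcholine receptor subunit, at most 2.86. *Pax7*, which marks satellite cells, reached 22.8 and 21.95 in MGNP replicates 2 and 4 and at most 5.20 elsewhere. *Myod1* and *Myog*, both myogenic regulators, had 21.9, 332.6, 0 and 140.8 and 20.03, 204.1, 2.17 and 162.7 in MGNP, against at most 4.04 and 5.20 in all other libraries. *Myf6*, the regulator most used by mature fibers, had 191.7, 1302, 4.33 and 591.4 in MGNP against no reads in MGWT. It was called higher there (limma adjusted p = 0.011), having passed the filter only through MGNP. Of the 12 genes of this list 7 were tested in MGNP against MGWT, of which 3 were higher and 1, *Tnnt2*, was lower (-2.47, SE 0.30, adjusted p = 0.000894). Over all genes tested 16.4% were higher and 16.2% lower. *Myod1* and *Myog* also passed the filter only through MGNP, which favors calls of higher values, but passing the filter is not itself a call. *Myl4* of this list did not rise with the muscle-rich glands. It had 78.2 to 118.5 normalized counts in MGNP, 107.0 to 134.9 in MGN and 37.2 to 45.9 in MGWT.

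The adult genes tracked each other across libraries. Over the 19 libraries Pearson's r of log2(normalized count + 1) was 0.97 for *Myh1* with *Myh2*, 0.94 for *Myh1* with *Myh4*, 0.89 for *Myh2* with *Myh4* and 0.75 for *Myh4* with *Myh7*. Over the 8 MGN and MGNP glands alone *Myh4* had an r of 0.97 with *Myh1*, 0.98 with *Myh2* and 0.87 with *Myh7*. These are descriptions of libraries that fall into groups, and libraries share their depth and size factor across genes. Reads of *Myh1* per read of *Myh4* ranged from 0.0624 to 0.367 in MGNP and from 0.0862 to 0.647 in MGN, while reads of *Myh1* per read of *Myh2* were held more tightly, at 2.33 to 3.26 and 3.13 to 4.50.

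**Figure D5:**
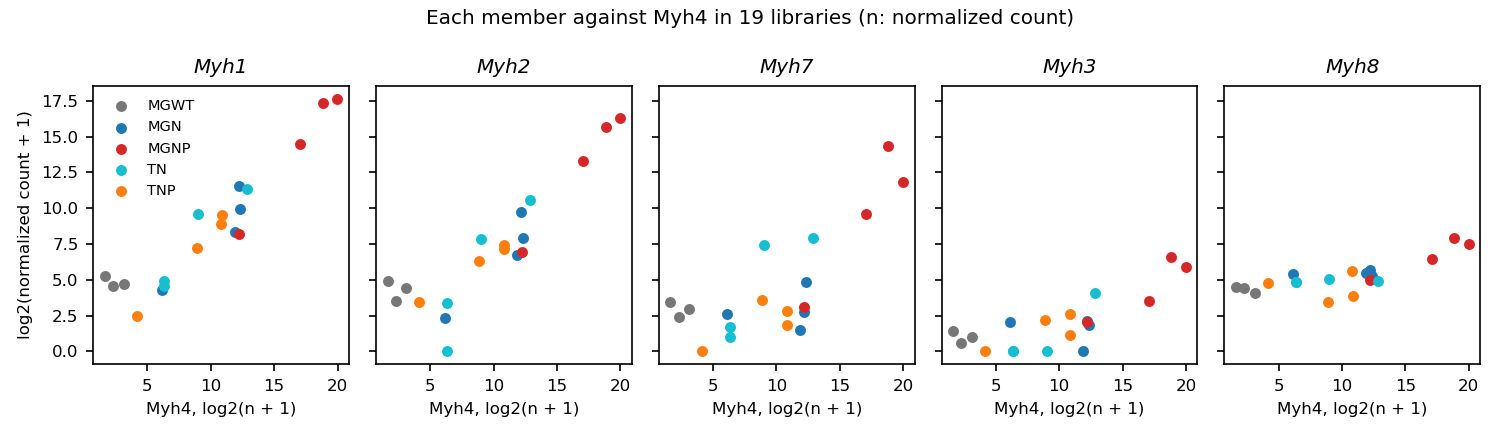
Each panel plots a member against *Myh4* in the 19 libraries, both as log2(normalized count + 1), colored by group. *Myh1* and *Myh2* climb with *Myh4*, *Myh7* climbs mainly in the 3 muscle-rich MGNP glands, and *Myh3* and *Myh8* stay low except in those glands.

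Members left out, among 19733 genes with at least 10 normalized counts in 4 or more libraries, those most like *Myh4* over the 19 libraries were *Xirp2* (r = 0.989), an actin-binding protein of striated muscle, *Ckm* (0.986), *Acta1* (0.985), *Pvalb* (0.981) and *Atp2a1* (0.98). Those most like *Myh7* were *Myl2* (r = 0.962), *Car14* (0.95), a membrane carbonic anhydrase, *Myl3* (0.947), the slow light chain, *Tnnt1* (0.947) and *Dupd1* (0.933). The nearest genes of *Myh7* and of *Myh4* were not shared, and 3 of the 5 nearest to *Myh7* were on the slow partner list.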

How the data were processed

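Gene-level RNA-seq of 19 libraries was used. Per the labels and the study's methods, 75-bp paired reads were aligned with TopHat2 (2.1.1) and Bowtie2 to GRCm38; labels and methods name different library kits, and the counter, annotation and strand setting are not given in the sources used here. The authors deposited DESeq2-normalized counts, a size-factor-scaled signal per gene. All values were whole multiples of a step per library (tolerance 0.05 reads), which gave back the reads. Of 46078 identifiers, 45229 matched GENCODE vM21.

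limma 3.58.1 (lmFit, eBayes with trend, R 4.3.3) was run per pair of groups on log2(normalized count + 1), for genes with at least 10 normalized counts in as many samples as the smaller group, with Benjamini-Hochberg adjustment over all genes and at least a 2-fold change. The test was checked on simulated counts with the same dispersion for every gene and both groups, and with changes only in the more abundant genes. It was not checked for spreads as wide as those within MGNP. Alternatives were edgeR 4.0.16 and DESeq2 1.42.0 on recovered reads, TMM scaling, pseudocounts of 0.5 and 5, other filters, no fold threshold, a replicate block, all groups in 1 fit and each sample left out. Shares of reads per kb were tested by exact two-sided permutation (scipy 1.17.1), with Wilson intervals carried to the per-kb scale. In no comparison did every pair of same-numbered samples deviate together with r over 0.1, so numbers were not used as pairs. The highest r of a pair was 0.29, in MGNP against MGN. The named genes are the members, the genes of 11 marker lists and the 5 genes most correlated with *Myh4* and with *Myh7*. Members and lists were chosen with earlier results of these data known.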

Additional observations from a re-analysis of the deposited data

Results flagged for a closer look

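Within groups of 4, a library was marked when the highest or lowest value lay apart from the others by more of the group's range than Dixon's 95% critical value. Of 48 sets of 4 checked, 15 were marked. Chance marks about 1 in 20 sets of independent normal values. The shares of a library are tied to each other, so that rate is no fair yardstick for this count.

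In MGN, replicate 4 was marked as low for *Myh4*, with 69.0 normalized counts against 3747 to 5192 in the others, and as high for the shares of *Myh7* (3.04%), *Myh3* (2.59%) and *Myh8* (18.2%), which rest on 138 reads on the 6 genes. Replicate 2 was marked for its *Myh2* share of 8.72%, and replicate 3 for *Myh3*, with 0.0 normalized counts.

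In MGNP, replicate 4 was marked for its *Myh7* share of 2.17%, and replicate 3, the gland with the fewest muscle transcripts, for shares of *Myh3* (0.063%) and *Myh8* (0.302%).

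Among tumors, TN replicate 1 was marked for a low *Myh4* share (32.9%) and a high *Myh7* share (7.69%), and TN replicate 3 for *Myh3*, with 16.2 normalized counts and a share of 0.142%. TNP replicate 2 was marked for its *Myh7* share of 1.11%, on 9 reads, and TNP replicate 1 for its *Myh8* share of 31.7%, on 24 reads.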

How the results depend on the processing

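With 3 or 4 samples a group, a 2810-fold spread of *Myh7* within MGNP and 52 reads on the 6 genes in the sparsest library, counts of called members depended on the setting. In MGN against MGWT, 2 members were called in the main test, 1 with a pseudocount of 5, with a mean filter of 50 or with all 5 groups in 1 fit, and 4 with edgeR, DESeq2 or the replicate block. In MGNP against MGN DESeq2 called 5, in TN against MGN 1 and in the genotype difference 4, where limma called 0 and edgeR 0. Leaving out 1 sample gave 1 to 4 members in MGN against MGWT, 3 to 6 in MGNP against MGWT, 0 to 1 in MGNP against MGN, 3 to 6 in TNP against MGNP and 0 to 1 in the genotype difference. Here and above, counts from left-out samples, pseudocounts, filters, the joint fit and the block stand without the calls over all genes. They therefore do not show whether the members moved apart from other genes. The TMM scaling moved the median of all genes by at most 0.09 on the log2 scale. Fold changes turned sign only for members that were not called. In TN against MGN *Myh2*, at -1.24, became 0.57 with edgeR and 0.55 with DESeq2, and leaving out 1 sample gave -2.34 to 0.08 for *Myh1* and -2.94 to 0.58 for *Myh2*. In TNP against TN *Myh2*, at 0.67, became -2.09 and -2.1, *Myh4*, at 0.04, became -0.96 and -0.98, and *Myh1* became 0.63 with TNP replicates 1 and 2 averaged, while leaving out 1 sample gave -1.58 to 0.94 for *Myh1*, -1.14 to 2.37 for *Myh2* and -0.73 to 1.55 for *Myh4*. The differences in share between MGNP and MGN ran from -7 to 2.05 percentage points for *Myh1*, -0.232 to 1.98 for *Myh2* and -0.648 to 0.568 for *Myh7* when 1 gland was left out. The replicate block, tried although the numbers were not taken as pairs, also ended the limma calls of *Myh3* and *Myh7* in MGNP against MGWT (adjusted p = 0.0749 and 0.0813) and of *Myh8* in TNP against MGNP (adjusted p = 0.0721). The cause of these changes was not tested.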
